A study of Rattus norvegicus with 9 samples.

Results

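A set of 8 carriers and enzymes that move glucose and lactate across the plasma membrane or control pH there were followed in cultured rat pulmonary artery smooth muscle cells. They were Slc2a1, Slc2a3 and Slc2a4 (glucose carriers), Slc16a1 and Slc16a3 (lactate carriers), Slc4a7 (a bicarbonate carrier), and Car9 and Car12 (carbonic anhydrases). All non-control probes named for these genes, by symbol or by annotated accession, were taken, which gave 9 probes for 8 genes. The whole array held 41012 non-control probes for 35040 genes, of which 22090 genes were tested. All 8 genes were among those tested. The cells came from male SD (Sprague Dawley) rats, were in generation 4 of culture, and were measured by hybridising Cy3-labelled total RNA to 1-colour Agilent rat expression arrays, with 3 arrays in each of 3 groups. The normoxia group was kept in a normoxic incubator at 37 °C, and 37 °C and 5% carbon dioxide are recorded for all 3 groups. The hypoxia group was placed in an airtight chamber holding 1% oxygen and 5% carbon dioxide. The hypoxia+quercetin group was hypoxic and received quercetin, a plant flavonol, at a dose not given in the sources used here. All groups share the described schedule of 24 h without serum and then 24 h in medium with 10% serum and either quercetin or 0.1% DMSO, the vehicle. Nothing in the labels says that the 3 samples of a group came from separate animals or cultures, so the p-values cover only the variation among these arrays, and it may be technical.

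Glucose enters cells through facilitative carriers of the SLC2 (GLUT) family, and cells that rely on glycolysis must dispose of the lactate and acid it yields. Monocarboxylate carriers of the SLC16 family move lactate with a proton, and many sodium-coupled bicarbonate carriers of the SLC4 family load base into the cytosol. Membrane-bound carbonic anhydrases convert carbon dioxide and water to bicarbonate and protons at the cell surface. Several of these genes are known targets of the hypoxia-inducible factors, and in pulmonary artery smooth muscle, intracellular pH and glycolytic metabolism have been studied in connection with growth and contraction under low oxygen.

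The hypoxia-inducible factors bind a short core, ACGTG or GCGTG, so the promoters of Slc2a1, Car9 and Car12 are shown with these letters. These genes changed most in hypoxia among those for which a promoter window was found. Any link between matches and changes was not tested. RefSeq promoter windows of assembly GRCr8 were found for 5 of the 8 genes, Slc2a1, Slc16a1, Slc16a3, Car9 and Car12, while Slc2a3, Slc2a4 and Slc4a7 are named only. The windows below hold 280 bases, 250 before the annotated start and 30 after it, all on the + strand and written 5′ to 3′. Capitals mark each ACGTG or GCGTG on either strand, so that a match on the other strand reads CACGT or CACGC.
Slc2a1, chr5:138002272-138002551: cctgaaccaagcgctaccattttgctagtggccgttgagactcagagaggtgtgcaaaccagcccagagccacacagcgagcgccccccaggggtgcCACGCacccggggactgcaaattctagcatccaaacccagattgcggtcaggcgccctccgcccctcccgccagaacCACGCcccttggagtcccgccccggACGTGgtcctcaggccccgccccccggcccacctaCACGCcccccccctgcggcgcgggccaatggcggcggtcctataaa
Car9, chr5:62558774-62559053: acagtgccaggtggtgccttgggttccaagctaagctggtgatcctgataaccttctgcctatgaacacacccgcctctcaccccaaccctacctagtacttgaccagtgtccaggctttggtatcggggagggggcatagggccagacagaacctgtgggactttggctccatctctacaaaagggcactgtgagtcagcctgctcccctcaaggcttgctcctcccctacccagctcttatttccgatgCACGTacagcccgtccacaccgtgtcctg
Car12, chr8:76169565-76169844: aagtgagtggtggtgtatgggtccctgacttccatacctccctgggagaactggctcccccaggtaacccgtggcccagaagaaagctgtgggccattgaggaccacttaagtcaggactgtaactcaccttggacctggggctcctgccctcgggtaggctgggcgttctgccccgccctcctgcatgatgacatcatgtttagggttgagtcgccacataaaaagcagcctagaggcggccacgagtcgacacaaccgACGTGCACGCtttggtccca

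Slc2a1 had 1 match to ACGTG, at position -51 from the start, and 3 to GCGTG, at -153, -76 and -16. Car9 had 1 match, to ACGTG at position 2, directly at the start. Car12 had ACGTG at position 11 and GCGTG at position 16, next to each other without overlap. Slc16a1 had 3 matches to ACGTG, of which those at -216 and -215 overlap on opposite strands, and 1 to GCGTG, whereas the Slc16a3 window had 0. Among 33469 rat promoter windows of the same length, 18.2% held ACGTG, 28.3% held GCGTG and 39.7% held either. A match describes letters and is not a bound site.

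Levels below are log2 signals relative to the 75th percentile of the same array, so that 0 means a signal equal to that percentile, and they are compared between groups for the same probe. Levels of different probes are not ranked. Changes are differences of group means ± standard error, with n = 3 arrays per group. Each p is limma's moderated p, two-sided and adjusted by Benjamini-Hochberg over the 22090 genes, and a gene counts as changed at an adjusted p under 0.05. Between 53.4% and 74.7% of probes were well above background per array, lowest on hypoxia replicate 3 and hypoxia+quercetin replicate 1. Signal at the 75th percentile lay between 585 and 598 on the normoxia arrays, between 409 and 432 under hypoxia, and between 423 and 471 on the quercetin arrays. Normoxia replicates 1 and 2 shared slide 1 and an earlier scan day, normoxia replicate 3 and the 3 hypoxia arrays shared slide 2, and the 3 quercetin arrays lay alone on slide 3. No slide held both hypoxia and quercetin arrays, so the effect of slide and that of quercetin cannot be told apart.

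The smooth muscle markers Tagln, Cnn1, Myh11, Des, Smtn, Cald1 and Lmod1, 7 of 7 on the array under the names searched, were well above background on all 9 arrays. Their summed signal, relative to the 75th percentile, lay between 156 and 231 in normoxia, between 341 and 362 in hypoxia and between 116 and 137 with quercetin. Of these 7 markers, 4 rose and 0 fell in hypoxia, and 0 rose and 5 fell with quercetin. Acta2 was not analysed here. Of 6 endothelial markers, at most 3 were above background on any array, and their sum stayed between 0.122 and 0.206. The sum of 7 epithelial markers lay between 3.71 and 5.46 in normoxia, between 39.4 and 46.9 in hypoxia and between 7.38 and 9.01 with quercetin, and the 3 of them that could be tested, Krt7, Krt8 and Krt18, rose in hypoxia and fell with quercetin. Epcam, Cdh1, Krt19 and Sftpc were not well above background on all arrays of any group. Of 6 fibroblast markers, 2 rose and 3 fell in hypoxia, with Lum 12.3-fold and Dcn 18.9-fold lower, while their sum, between 319 and 382 on normoxia arrays, was 511 to 599 under hypoxia and 405 to 505 with quercetin. Of 7 leukocyte markers, 6 were tested, 3 rose and 1 fell in hypoxia, where Lyz2 was 17.2-fold higher, and 1 rose and 4 fell with quercetin. Their sum was between 4.19 and 5.63 in normoxia, between 3.62 and 3.98 in hypoxia and between 2.70 and 2.77 with quercetin. Among all tested genes, 35.3% rose and 28.9% fell in hypoxia, and 26.9% rose and 31.5% fell with quercetin. The smooth muscle, epithelial and fibroblast sums were highest in hypoxia, as were 7 of the 8 genes below (Slc16a1 not under spike-in scaling), and the part of the marker changes in those results was not tested. In bulk RNA, fewer cells of a type and less RNA per cell cannot be told apart.

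Normoxia replicate 2 stood apart from the other normoxia arrays for these genes. It lay below both other normoxia arrays for 7 of the 8 genes and above both for Slc4a7. Its distance from the mean of normoxia replicates 1 and 3 was -1.99 for Slc2a3, -1.90 for Slc2a1, -1.42 for Car9 and -1.40 for Car12. Over all tested genes, the median of that distance was -0.04, with a 5th percentile of -0.76 and a 95th percentile of 0.61. Changes of the 8 genes against normoxia are therefore also given without this array. For the companion genes further below, leaving it out gave changes in hypoxia of 1.96 for Txnip, 1.87 for Bsg, 1.39 for Slc4a4, 1.76 for Car3 and -1.33 for Slc16a13.

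In hypoxia, 6 of the 8 genes rose, Slc4a7 fell, and Slc16a1 did not pass the test. Across all genes tested, 35.3% rose and 28.9% fell, 64.2% in all. The median change of the 8 genes was 1.70, against 0.10 over all genes. The 8 genes were chosen with earlier results of these data known, so such contrasts with all genes are descriptive only. With quercetin in hypoxia, 4 of the 8 genes fell, namely Slc2a4, Slc16a1, Car9 and Car12, and 0 rose, where 31.5% of all genes fell and 26.9% rose, 58.4% in all. At an unadjusted limma p under 0.05 the count that rose was also 0. The median change was -0.80 in that comparison, against -0.08 over all genes. Against normoxia, the quercetin-treated hypoxic cells were higher in 5 of the 8 genes, Slc2a1, Slc2a3, Slc16a3, Car9 and Car12, and lower in 0, where 23.0% of all genes were higher and 21.3% lower, 44.3% in all. At an unadjusted limma p under 0.05, 2 were lower in that comparison, Slc16a1 and Slc4a7. The 3 comparisons share arrays with each other, so their results are not independent.

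**Figure D1:**
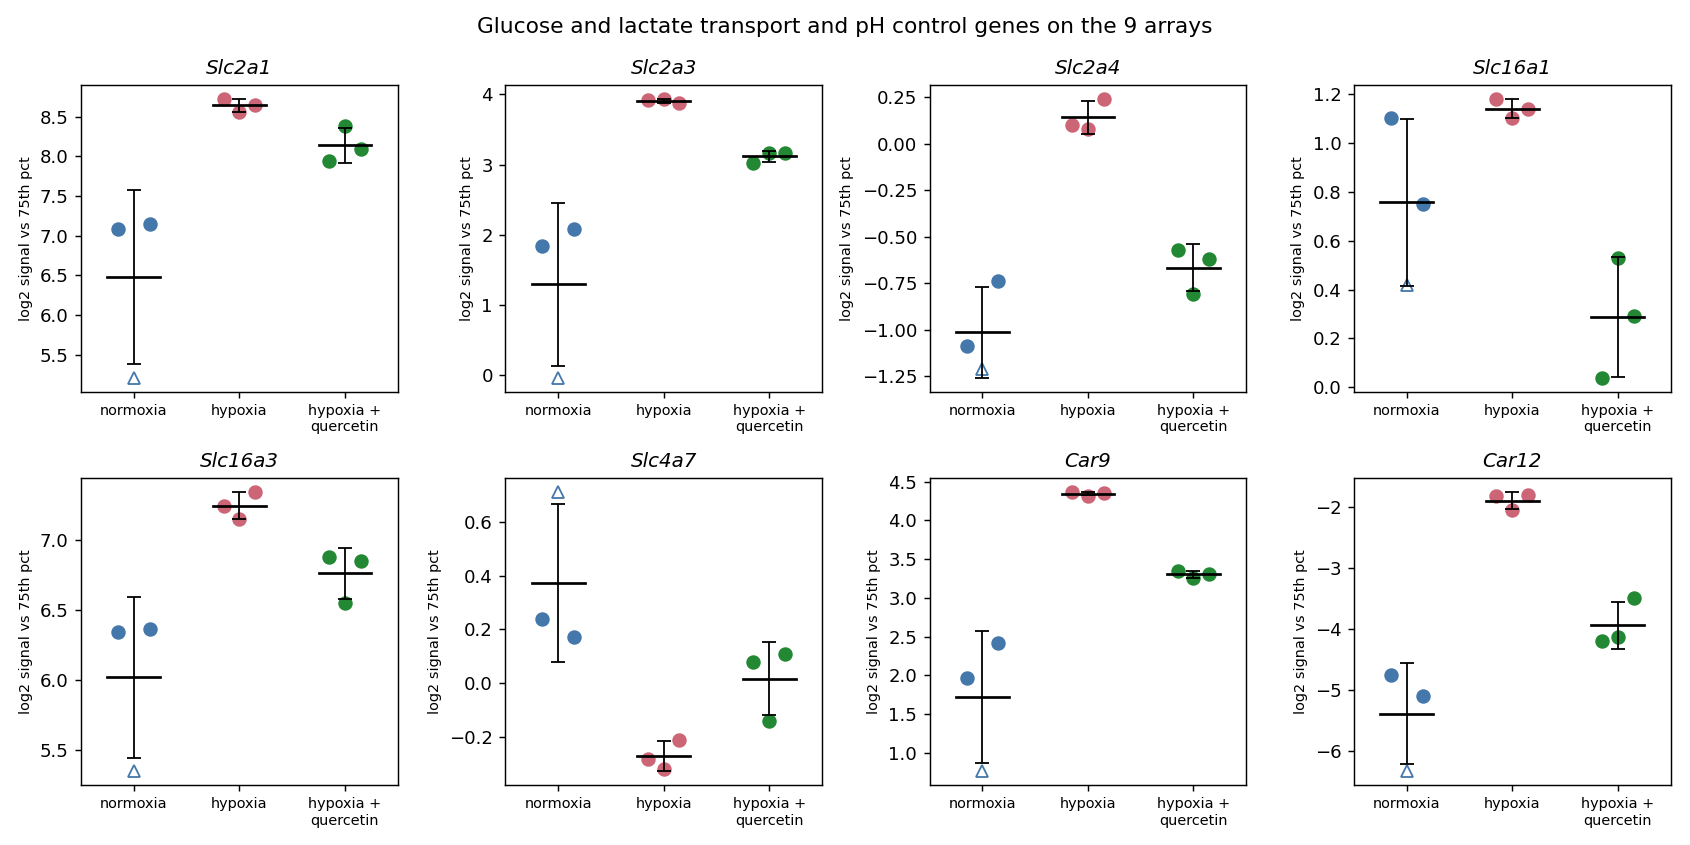
Log2 signal relative to the array's 75th percentile (vertical axis, own scale in each panel) for the 8 genes on the 9 arrays, by group (horizontal axis). Points are arrays, the open triangle is normoxia replicate 2, bars are means ± SD (n = 3), and Slc2a4 is drawn from its brighter probe. The hypoxia arrays lie above both other groups for 7 genes, for Slc16a1 not under spike-in scaling, and below both for Slc4a7, and normoxia replicate 2 is the lowest normoxia array for 7 genes.

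Slc2a1 encodes GLUT1, the carrier that supplies basal glucose uptake in most cells. Its level was 7.08, 5.21 and 7.14 in normoxia replicates 1, 2 and 3, then 8.72, 8.56 and 8.65 in hypoxia, and 7.94, 8.38 and 8.09 with quercetin. All hypoxia arrays were above all quercetin arrays, which were above all normoxia arrays. The probe is spotted 10 times on each array, and the SD between those spots was 0.036 to 0.058. Slc2a1 rose by 2.17 ± 0.45 in hypoxia, 4.50-fold (limma adjusted p = 0.0034), which placed it at rank 298 of 22090 genes from the highest change. Without normoxia replicate 2 the rise was 1.54 ± 0.13 (adjusted p = 8.4e-05). With slide as a block, where normoxia replicate 3 is the only normoxia array on the hypoxia slide, it was 1.51 ± 0.59 and no longer passed (adjusted p = 0.075).

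The quercetin difference for Slc2a1 was -0.51 ± 0.45 against hypoxia and did not pass (adjusted p = 0.36), with a 95% interval from -1.55 to 0.54. It was -0.03 under quantile normalization (adjusted p = 0.96) and -0.04 in the deposited value table (adjusted p = 0.95). The standard error is shared over the 3 groups and includes the spread of normoxia replicate 2, which takes no part in that difference. Without that array the same difference had a standard error of 0.12 and passed (adjusted p = 0.0080). Against normoxia the quercetin-treated cells were higher by 1.66 ± 0.45, 3.17-fold (adjusted p = 0.018), and by 1.03 ± 0.13 without normoxia replicate 2. That call was lost without quercetin replicate 2 (adjusted p = 0.057), with normexp correction (1.58, adjusted p = 0.097) and with scan day as a block (1.00, adjusted p = 0.25).

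Slc2a3 encodes GLUT3, a carrier with high affinity for glucose, known best from neurons. Normoxia replicates 1, 2 and 3 had levels of 1.84, -0.03 and 2.08, hypoxia arrays 3.92, 3.93 and 3.88, and quercetin arrays 3.03, 3.17 and 3.16. The groups did not overlap in any comparison, and the hypoxia arrays were within an SD of 0.03. The rise in hypoxia was 2.61 ± 0.47, 6.10-fold (adjusted p = 0.0015), at rank 154 of all genes, and 1.95 ± 0.09 without normoxia replicate 2. With slide as a block it was 1.83 ± 0.58 (adjusted p = 0.037). The quercetin difference against hypoxia, -0.79 ± 0.47, did not pass with all arrays (adjusted p = 0.18, 95% interval -1.86 to 0.29), but it passed without normoxia replicate 2 (standard error 0.08, adjusted p = 2.0e-04). Quercetin-treated cells were 1.82 ± 0.47 above normoxia (adjusted p = 0.014), or 1.16 ± 0.09 without that array.

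Slc2a4 encodes GLUT4, the insulin-responsive carrier of striated muscle and fat, and it was the only gene of the 8 with a pair of probes. The dimmer probe covers the start of the coding sequence and is shown here because it reads a different stretch of the transcript from the brighter probe, which has 10 spots per array. Its 60 bases run 5′ to 3′ with the start codon in capitals.
Slc2a4: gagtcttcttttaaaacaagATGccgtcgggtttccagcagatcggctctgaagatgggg

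The brighter Slc2a4 probe lies at chr10:56786861-56786920 and the dimmer one at chr10:56790782-56792089, across an exon junction, both on the - strand in the rn4 build that the files use. The brighter probe had levels of -1.09, -1.21 and -0.74 in normoxia, 0.10, 0.08 and 0.24 in hypoxia, and -0.57, -0.81 and -0.62 with quercetin. The dimmer probe had -4.21, -5.46 and -3.95 in normoxia, -2.79, -3.07 and -2.88 in hypoxia, and -4.03, -4.32 and -4.68 with quercetin, where replicate 1 was not well above background. On both probes the hypoxia arrays lay above all others, while quercetin and normoxia arrays overlapped. Slc2a4 rose in hypoxia by 1.15 ± 0.13 on the brighter probe, 2.23-fold (adjusted p = 1.4e-04), and by 1.63 ± 0.36 on the dimmer one (adjusted p = 0.0042). It fell with quercetin by 0.81 ± 0.13 (adjusted p = 0.0012) and by 1.43 ± 0.36 (adjusted p = 0.0088), respectively. The remaining difference from normoxia, 0.35 ± 0.13, did not pass (adjusted p = 0.065), and under spike-in scaling it was -0.05. On its brighter probe, Slc2a4 was less touched by normoxia replicate 2 than Slc2a1 and Slc2a3. Omitting that array moved its rise in hypoxia to 1.05 and its difference from normoxia with quercetin to 0.25. On the dimmer probe the same array, at -5.46, lay well below the other normoxia arrays, at -4.21 and -3.95. Under spike-in scaling the rise on the brighter probe was 0.65 (adjusted p = 0.0058). Of 4 adipocyte markers, at most 2 were above background on any array, with a summed signal of 0.0248 to 0.0716. Of 4 striated muscle markers, at most 3 were above background. Their sum was also highest on the hypoxia arrays, at 0.807 to 0.945, beside 0.488 to 0.715 for normoxia and 0.646 to 0.722 for quercetin, and Mb (myoglobin) rose by 0.61 in hypoxia (adjusted p = 0.0097). Their part in the Slc2a4 change was not tested.

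Slc16a1 encodes MCT1, which carries lactate and pyruvate in either direction according to their gradients. Its level was 1.10, 0.42 and 0.75 in normoxia, 1.18, 1.10 and 1.14 in hypoxia, and 0.04, 0.53 and 0.29 with quercetin. The quercetin arrays were all below the hypoxia arrays, but they overlapped the normoxia arrays, whose replicate 2 was at 0.42. The lowest hypoxia array and normoxia replicate 1 both rounded to 1.10. The difference between hypoxia and normoxia, 0.39 ± 0.18, did not pass (adjusted p = 0.092, 95% interval -0.03 to 0.80). It passed without normoxia replicate 1 (0.56, adjusted p = 0.023), was 0.22 ± 0.16 without normoxia replicate 2, and was -0.12 under spike-in scaling. With quercetin, Slc16a1 fell by 0.85 ± 0.18, 1.81-fold (adjusted p = 0.0040), and lay 0.47 ± 0.18 under normoxia with an adjusted p of 0.068. Without normoxia replicate 2 the latter was -0.63 ± 0.16 and passed (adjusted p = 0.016), and under spike-in scaling it was -0.87 (adjusted p = 0.0024).

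Slc16a3 encodes MCT4, the lactate exporter typical of strongly glycolytic cells. Levels were 6.34, 5.35 and 6.36 in normoxia, 7.24, 7.15 and 7.34 in hypoxia, and 6.88, 6.55 and 6.85 with quercetin. All hypoxia arrays exceeded all quercetin arrays, and all of these exceeded all normoxia arrays. Slc16a3 rose in hypoxia by 1.23 ± 0.25, 2.34-fold (adjusted p = 0.0032), and by 0.90 ± 0.12 without normoxia replicate 2. The rise missed the threshold with slide as a block (0.89, adjusted p = 0.069) and under quantile normalization (0.73, adjusted p = 0.051), and was 0.72 under spike-in scaling (adjusted p = 0.038). The quercetin difference was -0.48 ± 0.25 and did not pass (adjusted p = 0.14), was past the threshold without normoxia replicate 2 (adjusted p = 0.0060), and turned to 0.04 under quantile normalization and in the deposited value table. Quercetin-treated cells were 0.75 ± 0.25 above normoxia (adjusted p = 0.043), or 0.41 ± 0.12 without normoxia replicate 2. Leaving out any single hypoxia or quercetin array took that call away, with adjusted p from 0.053 to 0.11, as did spike-in scaling (0.34, adjusted p = 0.30).

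Slc4a7 encodes NBCn1, an electroneutral sodium and bicarbonate cotransporter that brings base into the cell, and it was the only gene of the 8 that fell in hypoxia. Its level was 0.24, 0.71 and 0.17 in normoxia, -0.28, -0.32 and -0.21 in hypoxia, and 0.08, -0.14 and 0.11 with quercetin. The order was the opposite of that of Slc2a1, Slc2a3 and Slc16a3. Normoxia was highest, quercetin between and hypoxia lowest, and no group overlapped another. The fall was 0.64 ± 0.15 on the log2 scale, 1.56-fold (adjusted p = 0.0053), or 0.47 ± 0.10 without normoxia replicate 2. With slide as a block the change was -0.44 ± 0.19 and did not pass (adjusted p = 0.10). The quercetin difference against hypoxia, 0.29 ± 0.15, did not pass (adjusted p = 0.13). It passed without normoxia replicate 2, with only those groups in the fit, and with array weights (0.37), at adjusted p of 0.023, 0.034 and 0.0032. The difference from normoxia was -0.36 ± 0.15 (adjusted p = 0.083), or -0.19 ± 0.10 without normoxia replicate 2 (adjusted p = 0.16). Under spike-in scaling the change in hypoxia was -1.15 (adjusted p = 5.3e-04) and the difference of quercetin from normoxia -0.76 (adjusted p = 0.0073).

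Car9 and Car12 encode membrane-bound carbonic anhydrases whose catalytic domain faces the outside of the cell. Their probes are shown because these genes had the largest changes of the 8 in hypoxia in the fit of all 9 arrays. Slc2a3, at 2.61, was close to Car9, at 2.63. Under normexp correction the rise of Car12 was 1.14, less than that of Slc2a3, at 2.46. Car9 is read at chr5:59991393-59991452 and Car12 at chr8:71069922-71070713, across an exon junction, both on the + strand in rn4.
Car9: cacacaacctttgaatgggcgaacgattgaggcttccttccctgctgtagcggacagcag
Car12: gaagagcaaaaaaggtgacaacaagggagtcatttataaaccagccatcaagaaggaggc

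Car9 was at 1.97, 0.77 and 2.42 in normoxia, 4.36, 4.32 and 4.35 in hypoxia, and 3.35, 3.26 and 3.31 with quercetin. The hypoxia and quercetin arrays each were within an SD of 0.05 or less, and the 3 groups were apart. Car9 rose by 2.63 ± 0.35 in hypoxia, 6.17-fold (adjusted p = 2.9e-04), at rank 149 of all genes, and by 2.15 ± 0.13 without normoxia replicate 2 and 1.93 ± 0.38 with slide as a block, which passed too. With quercetin it fell by 1.03 ± 0.35, 2.05-fold (adjusted p = 0.032). That call was lost on leaving out any single hypoxia or quercetin array, with adjusted p from 0.066 to 0.078 and changes from -1.06 to -1.01, and held without normoxia replicate 2 (adjusted p = 2.4e-04). It was also lost with normexp correction (-1.13, adjusted p = 0.060), with quantile normalization (-0.82, adjusted p = 0.079), in the deposited value table (-0.82, adjusted p = 0.080) and without the filter on dim probes (adjusted p = 0.073). Quercetin-treated cells were 1.59 ± 0.35 above normoxia (adjusted p = 0.0066), or 1.12 ± 0.13 without normoxia replicate 2.

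Car12 was dim in normoxia, at -4.75, -6.32 and -5.09, and reached -1.83, -2.06 and -1.81 in hypoxia and -4.19, -4.13 and -3.50 with quercetin. It was well above background on all arrays except quercetin replicate 1. The 3 groups did not overlap, and the quercetin mean lay between the other means. Its rise of 3.48 ± 0.38 in hypoxia, 11.2-fold (adjusted p = 9.2e-05), ranked 38th of all genes, and was 3.02 ± 0.22 without normoxia replicate 2 and 3.19 ± 0.55 with slide as a block. With quercetin Car12 was lower than in hypoxia by 2.04 ± 0.38, 4.11-fold (adjusted p = 0.0019). It lay 1.45 ± 0.38 above normoxia (adjusted p = 0.014), or 0.98 ± 0.22 without normoxia replicate 2. The signal was low enough that background correction mattered. With normexp background correction the rise was 1.14 (adjusted p = 0.068) the quercetin difference was -0.64 (adjusted p = 0.31), and that from normoxia was 0.50 (adjusted p = 0.53), so that none passed. Leaving out quercetin replicate 3 also took the last call away (adjusted p = 0.054).

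**Figure D2:**
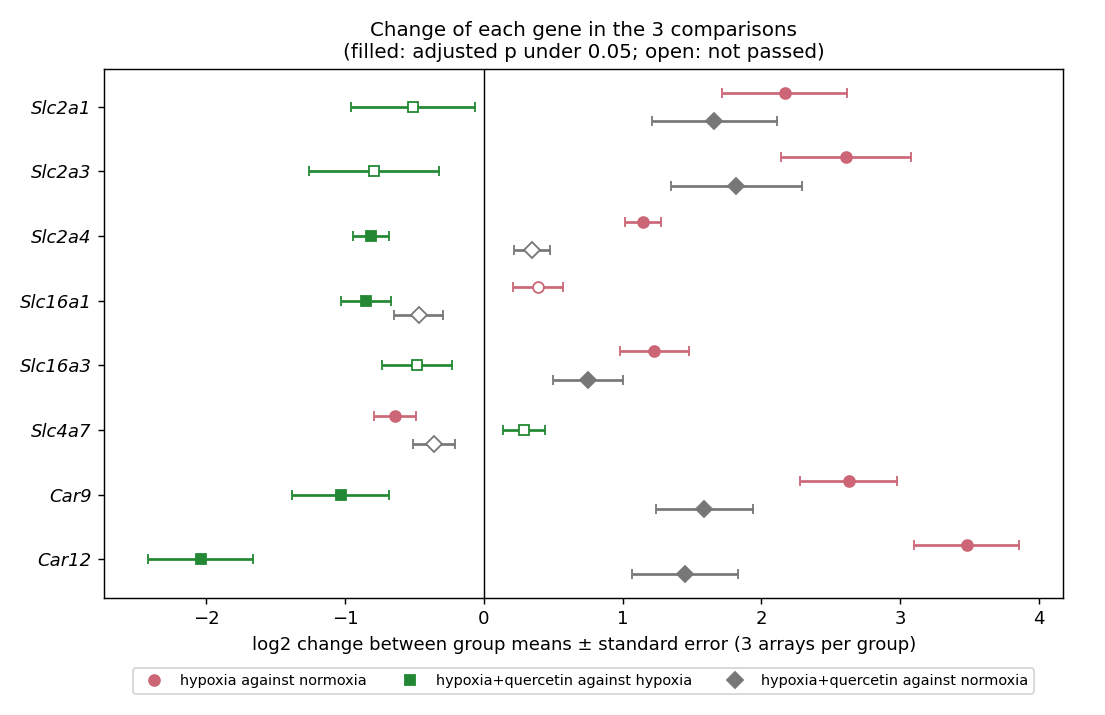
Log2 change between group means ± standard error (horizontal axis, n = 3 arrays per group) for the 8 genes in the 3 comparisons, with filled symbols for an adjusted p under 0.05 and open symbols otherwise. The change in hypoxia runs from -0.64 for Slc4a7 to 3.48 for Car12, and the quercetin difference against hypoxia, which uses the same hypoxia arrays, runs from -2.04 for Car12 to 0.29 for Slc4a7.

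All 8 genes had groups that did not overlap in hypoxia against normoxia, where 71.7% of all genes had, and all 8 in quercetin against hypoxia, where 71.1% had. Against normoxia, the quercetin arrays did not overlap for 6 of 8 genes, where 53.6% of all genes had such groups. Non-overlap was thus frequent throughout the array. With normoxia replicate 2 left out, quercetin against hypoxia called 7 of the 8 genes lower and Slc4a7 higher, and 63.5% of all genes passed. With only the hypoxia and quercetin arrays in the fit, the same counts of 7 lower and 1 higher were found, with 63.2% of all genes called. The changes themselves did not move, and the standard errors fell. Normoxia replicate 3 is the only normoxia array scanned on the same day as the others, and with scan day as a block the adjusted p of the 8 genes in quercetin against normoxia ran from 0.12 to 0.72, while 26.3% of all genes passed.

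**Figure D3:**
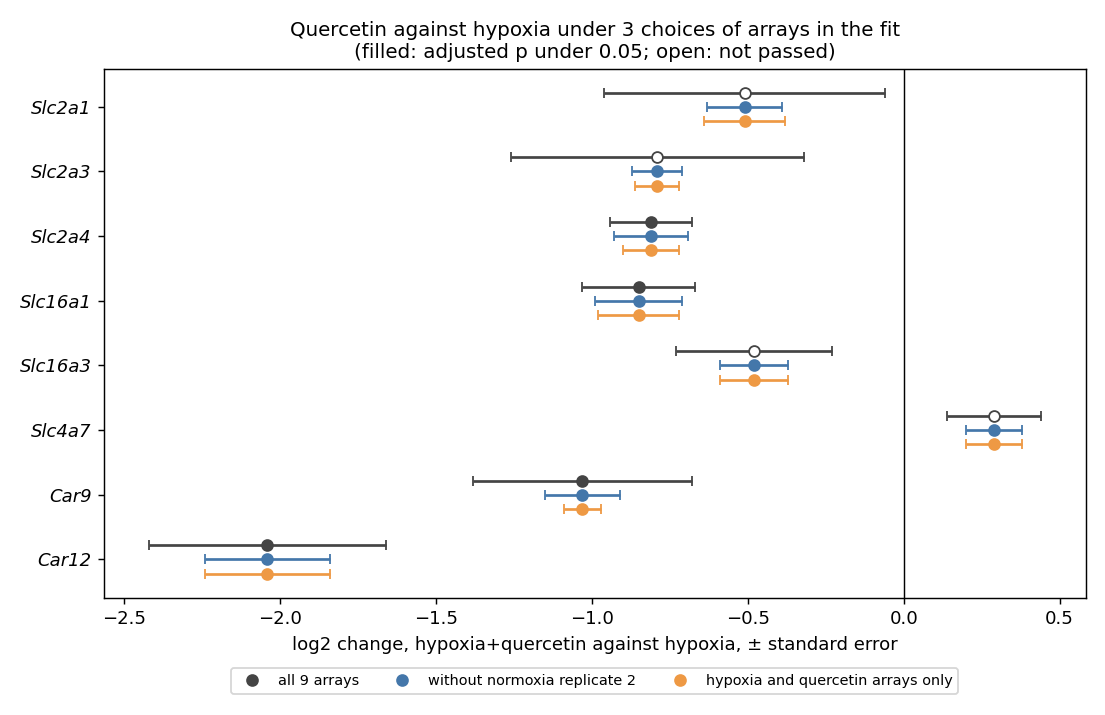
Log2 change in hypoxia+quercetin against hypoxia ± standard error (horizontal axis) for the 8 genes, from the fit of all 9 arrays, the fit without normoxia replicate 2 and the fit of the 6 arrays compared, with filled points for an adjusted p under 0.05. The points of a gene line up, while the standard error of Slc2a1 falls from 0.45 with all arrays to 0.12 without normoxia replicate 2.

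Related genes were set against each other within each array, where a shift common to the whole array cancels. The difference between Slc2a1 and Slc2a3 was 5.17 ± 0.10 (SD, n = 3) in normoxia, 4.73 ± 0.09 in hypoxia and 5.01 ± 0.17 with quercetin, so Slc2a3 rose more than Slc2a1 by 0.44, and normoxia replicate 2, at 5.24, was no longer apart. The difference between Slc16a3 and Slc16a1 was 5.26 ± 0.34, 6.10 ± 0.08 and 6.47 ± 0.41 in the same order of groups, hence larger in hypoxia by 0.84 and with quercetin by 1.21 than in normoxia. Quantile normalization, which is not a common shift, moved the hypoxia change of the first difference from -0.44 to -0.88 and its quercetin change from 0.28 to 0.54, and moved those of the second from 0.84 to 0.35 and from 0.37 to 0.89. For Car9 minus Car12 it was 7.10 ± 0.40, 6.25 ± 0.11 and 7.25 ± 0.38, but under normexp background correction its change in hypoxia turned from -0.86 to 1.44 and that with quercetin from 1.00 to -0.49. In the exact two-sided permutation test, 3 against 3 arrays cannot go below p = 0.1. That value was reached in 6 of the 9 contrasts, with 0.15 after adjustment over the 9. In the same exact test, quercetin against normoxia gave p = 0.2 for the glucose carriers and 0.7 for the anhydrases, and quercetin against hypoxia gave 0.4 for the lactate carriers.

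Among other glucose carriers, 8 of 16 listed genes could be tested, 4 rose and 2 fell in hypoxia, and their median change was 0.36. Slc2a6, which encodes a carrier of lysosomal membranes, moved against Slc2a1 and Slc2a3, with levels of 1.36, 1.35 and 1.20 in normoxia, -1.96, -2.02 and -2.06 in hypoxia, and 0.47, 0.03 and 0.08 with quercetin. Normoxia was highest and hypoxia lowest, with no overlap. It fell by 3.32 ± 0.12 in hypoxia (adjusted p = 1.5e-06) and rose by 2.21 ± 0.12 with quercetin (adjusted p = 6.8e-06). Slc2a8, an intracellular carrier, rose by 0.82 ± 0.09 in hypoxia (adjusted p = 7.7e-05) and was still 0.89 ± 0.09 above normoxia with quercetin. Slc2a9, a urate carrier, Slc2a10 and Slc5a2, the renal sodium and glucose cotransporter, rose by 0.64, 0.80 and 1.07 in hypoxia. They fell with quercetin by 0.50, 1.24 and 0.93, although the further probe of Slc2a10 gave -0.25 there (adjusted p = 0.38). Normexp correction took all of these calls away. In the same order of genes, the rises then had adjusted p of 0.057, 0.28 and 0.23, and the falls 0.16, 0.24 and 0.52. Spike-in scaling left rises of 0.13 for Slc2a9 and 0.29 for Slc2a10, which did not pass (adjusted p = 0.52 and 0.3). With quercetin, 2 of the 8 rose and 3 fell, and against normoxia 2 were higher and 1 lower. The shares over all genes were 35.3% up and 28.9% down in hypoxia, and 26.9% up and 31.5% down with quercetin. They were 23.0% higher and 21.3% lower for quercetin against normoxia.

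The chaperones of the lactate carriers did not move together. Bsg encodes basigin, which brings MCT1 and MCT4 to the cell surface, and its level was 6.92, 6.12 and 6.66 in normoxia, 8.74, 8.49 and 8.74 in hypoxia, and 8.03, 8.12 and 8.03 with quercetin. All hypoxia arrays were highest and all normoxia arrays lowest. Bsg rose by 2.09 ± 0.19 in hypoxia (adjusted p = 3.4e-05) and was 1.49 ± 0.19 above normoxia with quercetin (adjusted p = 4.2e-04). The other chaperones, Emb and Nptn, fell in hypoxia by 0.98 ± 0.15 and 0.92 ± 0.10 (adjusted p = 5.7e-04 and 1.2e-04), and Nptn rose by 0.45 with quercetin. In this list 11 of 17 genes could be tested, and 4 rose and 6 fell in hypoxia with a median of -0.28. With quercetin 1 rose and 6 fell, and 2 were higher and 7 lower than normoxia. The matching shares of all genes were 35.3% and 28.9%, then 26.9% and 31.5%, then 23.0% and 21.3%. Among the orphan or less studied carriers, Slc16a6 rose by 1.34 in hypoxia, although a further probe gave 0.34, Slc16a13 fell by 1.85, and Slc16a11 fell with quercetin by 1.05 to 1.42 below normoxia. Slc16a14 fell with quercetin by 2.26 ± 0.36 (adjusted p = 8.8e-04), which normexp correction reduced to -0.92 (adjusted p = 0.13). Slc16a12 was dim, and its quercetin change of -1.73 became 0.01 under normexp correction.

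Among other bicarbonate and proton exchangers, 15 of 26 listed genes were tested, 3 rose and 5 fell in hypoxia, and the median change was -0.06. Slc4a4, the electrogenic sodium and bicarbonate cotransporter, rose while Slc4a7 fell. Its level was -0.81, -1.49 and -0.45 in normoxia, 0.69, 0.84 and 0.73 in hypoxia, and 0.00, -0.40 and 0.04 with quercetin. No groups overlapped, and the rise in hypoxia was 1.67 ± 0.25 (adjusted p = 5.0e-04). Slc9a9, an endosomal sodium and proton exchanger, fell by 1.90 ± 0.09 in hypoxia (adjusted p = 2.8e-06) and lay 2.35 ± 0.09 lower than normoxia with quercetin. The fall with quercetin against hypoxia, -0.45, was 0.04 under normexp correction. Further Slc9a9 probes gave -1.08 (adjusted p = 0.0010) and -0.40 (adjusted p = 0.25) in that comparison. Of the scaffolds that tether such exchangers, Nherf1 fell by 1.13 ± 0.13 in hypoxia, and Nherf2 fell by 1.41 ± 0.09 with quercetin (adjusted p = 1.0e-05). In quercetin against hypoxia, 7 of the 15 rose and 3 fell, with a median of 0.42, among them Slc9a5 with a rise of 1.04 ± 0.17 (adjusted p = 0.0012). All genes together had 26.9% that rose and 31.5% that fell there, and 35.3% that rose and 28.9% that fell in hypoxia.

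Of the other carbonic anhydrases, 9 of 14 listed genes were tested. Car3, a cytosolic form with low activity, was at -1.87, -0.76 and -1.11 in normoxia, 0.34, 0.29 and 0.18 in hypoxia, and -2.61, -3.59 and -3.19 with quercetin. Its quercetin arrays lay below all normoxia arrays. It rose by 1.52 ± 0.31 in hypoxia (adjusted p = 0.0029), fell with quercetin by 3.40 ± 0.31 (adjusted p = 4.9e-05), and lay 1.88 ± 0.31 under normoxia (adjusted p = 0.0017, or 0.17 with normexp correction). Car11, a member without catalytic activity, rose by 0.80 ± 0.13 in hypoxia and was 0.86 ± 0.13 above normoxia with quercetin. Cytosolic Car13 did not clear background on any of the 3 quercetin arrays, nor on hypoxia replicate 3. Its fitted fall with quercetin against hypoxia was 2.22 ± 0.19 (adjusted p = 3.9e-05). With a floor under the quercetin values, the fall was 2.44-fold. For that floor, the quercetin value of an array was the dimmest signal that cleared background there, or the probe's own signal if that was higher. As hypoxia replicate 3 entered with its own dim signal, this is not a strict lower bound. The fitted quercetin change of Car13 turned to 0.05 under normexp correction. In hypoxia 3 of the 9 rose and 1 fell, where 35.3% of all genes rose and 28.9% fell. With quercetin 1 rose and 4 fell, where 26.9% of all genes rose and 31.5% fell.

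Genes of glucose carrier traffic and turnover were tested in 14 of 15 cases, with 6 higher and 4 lower in hypoxia. Txnip, an arrestin-like protein that draws GLUT1 and GLUT4 off the cell surface, was at 2.79, 1.67 and 2.87 in normoxia, 4.84, 4.85 and 4.70 in hypoxia, and 2.00, 1.49 and 1.83 with quercetin. Hypoxia stood above the other groups, which overlapped. Txnip rose in hypoxia by 2.35 ± 0.30 (adjusted p = 2.3e-04) and fell with quercetin by 3.03 ± 0.30 (adjusted p = 7.3e-05). The SNARE proteins and partners that dock GLUT4 vesicles fell with quercetin, Stx4 by 0.76 ± 0.08, Vamp2 by 0.78 ± 0.10 and Stxbp3 by 0.91 ± 0.12 (adjusted p = 9.1e-05, 2.8e-04 and 2.8e-04). In hypoxia Snap23 and Stxbp3 had risen by 0.85 and 0.75. Gipc1, which binds the tail of GLUT1, fell by 1.27 ± 0.09 in hypoxia (adjusted p = 1.1e-05) and rose by 0.80 ± 0.09 with quercetin. Tbc1d1, a Rab GTPase-activating protein that restrains GLUT4 vesicles, fell by 1.13 ± 0.18 in hypoxia and was 1.39 ± 0.18 lower than normoxia with quercetin. Over the list, 2 rose and 9 fell with quercetin, with a median of -0.36. Of all genes, 26.9% rose and 31.5% fell with quercetin, and 35.3% rose and 28.9% fell in hypoxia.

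**Figure D4:**
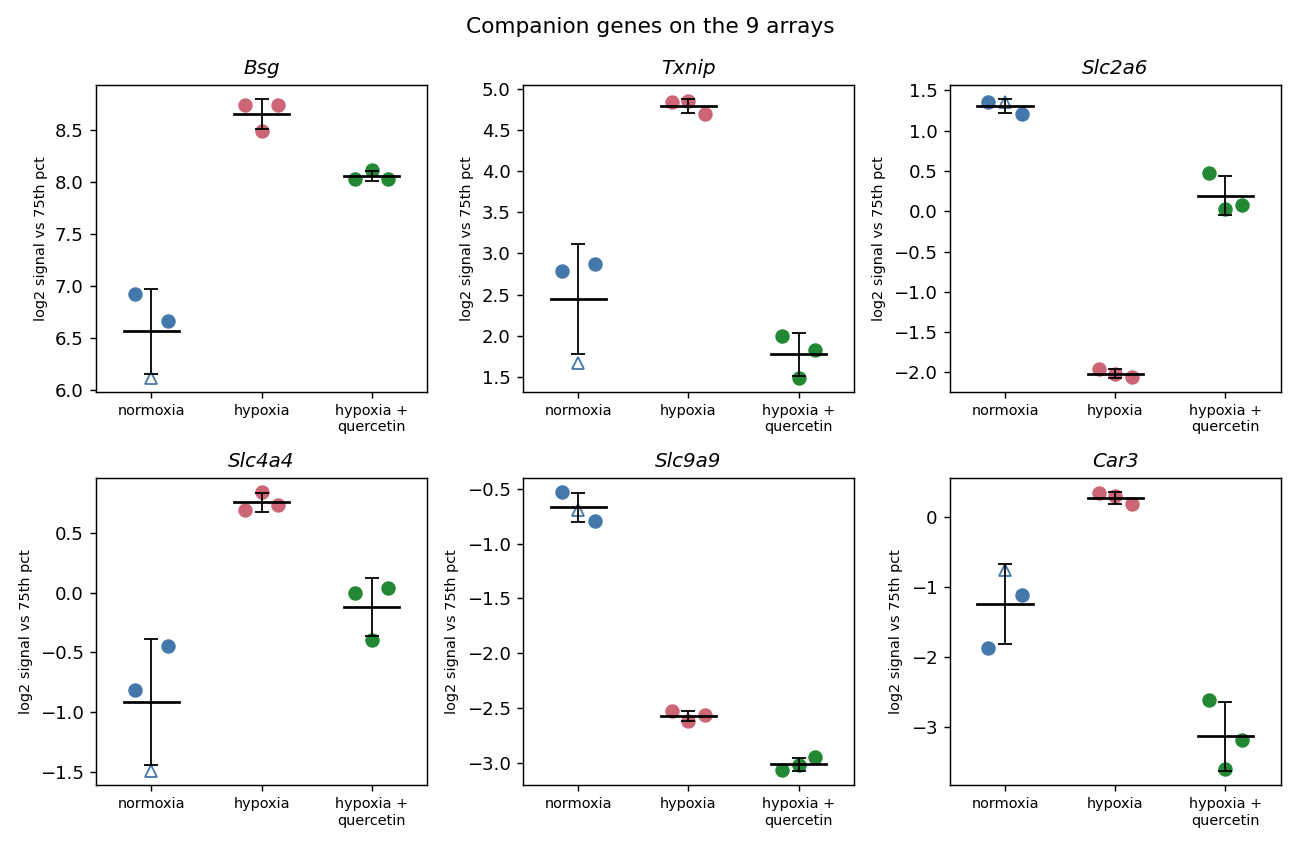
Log2 signal relative to the array's 75th percentile (vertical axis, own scale in each panel) for 6 companion genes on the 9 arrays, by group, with bars for means ± SD (n = 3) and an open triangle for normoxia replicate 2. Bsg, Txnip, Slc4a4 and Car3 are highest in hypoxia, Slc2a6 is lowest there, and Slc9a9 is lower in both hypoxic groups than in normoxia.

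The genes whose 9 normalized log2 values correlated most with each gene were listed as a description. As arrays of a group share their condition, Pearson's r is high for many genes and has no p. Slc2a1 was closest to Ero1a, an oxidase of the endoplasmic reticulum (r = 0.9996), which had changes of 2.42, -0.57 and 1.85 in the 3 comparisons beside 2.17, -0.51 and 1.66 for Slc2a1. Tnrc6c and Mapt followed. Slc2a3 was closest to Mapt (0.9984), Gys1, the muscle glycogen synthase (0.9982), and Rab40b. Car9 was closest to Ramp1 (0.9986), Gpi, the glycolytic glucose phosphate isomerase (0.9976), and Pla2g4b. Slc2a4 lay nearest Kiaa1671, Coq8a and Adcy6 (0.9962, 0.9942 and 0.9925). Slc16a3 lay nearest Srcap, Mtss1 and Plekha3 (0.9923, 0.9886 and 0.9877), and Slc16a1 nearest Dkc1 and Acbd6 (0.9888 and 0.9837). Slc4a7 lay nearest Pdzd11, Fam216a and Sgf29 (0.9910, 0.9905 and 0.9901), all lower in hypoxia, and Car12 nearest Mrpl43, Chpt1 and Gzf1 (0.9946, 0.9931 and 0.9916).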

How the data were processed

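RNA was measured on 9 arrays, 3 in each of 3 groups taken from the sample titles. Per the file headers, each array was read in 1 channel by Agilent Feature Extraction 10.7.3.1, and the deposited scanner files hold spot intensity already corrected for background, with flags. The deposited value table holds log2 values, made by the authors in a way that these sources do not state, and was an alternative. The labels describe a microRNA labelling kit and the file headers a gene expression protocol. From the scanner files, 1639 control spots and outlier spots (71 to 148 per array) were left out, and 0 spots were saturated. The log2 intensity was averaged over the spots of a probe, and each array's 75th percentile was subtracted. A probe was kept where all arrays of any group had it well above background, which left 26653 of 41012 (65.0%). Of all probes, 18028 were named by accession, 190 by another accession, 3168 by symbol and 400 by synonym in a RefSeq table of GRCr8, and 19226 kept the file's name. A gene was its probe with the highest mean signal.

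A single limma fit of group means took in all 9 arrays (limma 3.58.1, R 4.3.3, lmFit and eBayes, 6 residual and 2.30 prior degrees of freedom). The same fit was also run on simulated data with means and spreads taken from these arrays. There the noise was independent between genes and few genes changed, unlike on these arrays, so no conclusion is drawn from it. Contrasts of related genes used exact permutation tests. The number of arrays limits the precision. The genes named were all 8 genes, up to 5 per companion list and comparison with the smallest adjusted p, and 3 most similar genes each; the marker genes stand outside this rule. Some genes that the rule allows are not reported here. The members and lists were chosen with earlier results of these data known. Alternatives were normexp correction with offset 50, quantile, median and spike-in scaling, the deposited table, other probe filters, probe means, fewer groups, blocks for replicate number, slide and scan day, trend and robust estimation, and leaving out each array. Array weights were added after seeing the data.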

Additional observations from a re-analysis of the deposited data

How the results depend on the processing

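On leaving out any array, 6 to 7 of the 8 genes were higher in hypoxia and 1 was lower, with 55.8% to 65.2% of all genes called. With slide or scan day as a block, 4 were higher and 0 lower, and 44.1% of all genes were called, against 64.2%. In quercetin against hypoxia, leaving out an array gave 3 to 7 lower and 0 to 1 higher (49.8% to 63.5% of all genes), and normexp correction gave 2 lower (27.9%). The fit of only the 2 groups and that with array weights each gave 7 lower and 1 higher, with 63.2% and 71.3% of all genes called. In quercetin against normoxia, leaving out an array gave 3 to 6 higher and 0 to 1 lower (34.8% to 44.7% of all genes), normexp correction gave 2 higher (14.3%), and scan day as a block gave 0 higher (26.3%), with Slc2a1 at 1.00 (adjusted p = 0.25) and Car12 at 1.15 (adjusted p = 0.16). There the count lower was 2 under spike-in scaling (51.9%) and 1 with probes above background on all 9 arrays (52.7%), with trend and robust estimation (45.9%) and with array weights (55.8%). The cause of these changes was not tested.

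Signs turned for Slc16a1 in hypoxia under spike-in scaling (-0.12), for Slc16a3 with quercetin under quantile normalization and in the deposited table (0.04 each), and, against normoxia under spike-in scaling, for Slc2a4 (-0.05) and Slc2a13 (-0.12). Under normexp correction the quercetin changes of Slc9a9, Car13 and Slc16a12 turned to 0.04, 0.05 and 0.01. Spike-in scaling moved the median of all genes from 0.10 to -0.40 in hypoxia and from 0.04 to -0.36 in quercetin against normoxia. For Slc2a1 minus Slc2a3, normexp correction turned quercetin against normoxia to 0.04. For Car9 minus Car12, it turned the hypoxia change to 1.44 and the quercetin change to -0.49. Leaving out single arrays moved that difference in quercetin against normoxia from -0.05 to 0.36.

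After each group's mean was subtracted, same-numbered arrays of different groups correlated at -0.27 to 0.02, and differently numbered ones at -0.09 to 0.25. Same-numbered arrays were thus not more alike than the others. The deviations of a group's few arrays depend on each other, so this check cannot decide whether the samples were paired. With the replicate number as a block, the counts were 6 higher and 1 lower in hypoxia, 4 lower with quercetin, and 5 higher against normoxia, as without it. Dim probes such as Car12, and the own slide of the quercetin arrays, are further limits.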
